A study of Mus musculus with 4 samples.

Results

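The region described is a stretch of mouse chromosome 9 from 67.0 to 70.2 Mb (build mm9) around Rora, the gene of the nuclear receptor RORα. Its members are the genomic array probes whose midpoint lies between those bounds, 234 of the 170305 probe positions on the array, and all 234 were usable on every array. The bounds were chosen from the measured timing of the KO and control arrays, as a region early in control and late in KO cells. Values of those arrays are therefore a description here, and no test was made on them. The interval taken for the gene itself, 68.5 to 69.25 Mb, held 83 of the probes.

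The cells were mouse embryonic fibroblasts, grown out of mouse embryos, and their replication timing was read on 4 arrays of 2 colours. The groups were a KO of suv4-20h, in which the floxed SUV4-20H1 allele is labelled as deleted, an induced and a non-induced suv4-20h mutant, and a control, with 1 array in each. The labels give 4-hydroxytamoxifen (1 mM, 24 hours) as the agent of the deletion and name no inducing agent for the induced mutant. The same treatment text stands with all 4 arrays, control and non-induced included, so the labels do not tell which cells received the drug. They name the same fibroblast line for all arrays, with a number that differs between fields, and culture at 3% oxygen. All cells took up the nucleotide analogue BrdU (50 µM, 1 hour), and 80000 cells were sorted by DNA content into early S and late S. New DNA of the early fraction was amplified and labelled with Cy3 and that of the late fraction with Cy5, and no dyes were swapped. Timing is log2 of early over late signal with the autosomal median of each array at 0, so a higher value means earlier replication. As each group has a single array, the spread between cultures is unknown, no test between conditions was possible, and every SE below is over probes within an array.

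The genome is copied in domains, and early domains tend to hold open, active chromatin while late ones tend to be gene-poor and compact. The Suv4-20h enzymes di- and trimethylate lysine 20 of histone H4, and the trimethylated form is associated with heterochromatin. RORα binds DNA at RORE elements, activates the clock gene Bmal1 in competition with the REV-ERB repressors, and is needed for cerebellar Purkinje cells, which fail in the staggerer mouse. Rora is a very long gene, and its human counterpart lies in a common fragile site.

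The RefSeq promoter of Rora is shown because the start of the gene sits beside the stretch where the arrays differed most. RefSeq (GRCm38.p6, another build than that of the probes) places it on the plus strand at chr9:68653536-68653835, so transcription runs towards higher coordinates. The capitals mark the CG dinucleotides.
Rora promoter: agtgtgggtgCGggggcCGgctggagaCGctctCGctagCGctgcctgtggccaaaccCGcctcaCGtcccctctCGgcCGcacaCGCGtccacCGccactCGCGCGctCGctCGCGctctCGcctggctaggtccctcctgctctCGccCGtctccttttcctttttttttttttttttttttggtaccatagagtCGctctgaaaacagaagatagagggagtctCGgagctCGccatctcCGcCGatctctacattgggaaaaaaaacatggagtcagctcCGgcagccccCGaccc
It holds 28 CG dinucleotides in 300 bases, from 250 bases before to 50 after the start, and 85.8% of the 32851 promoters in the table hold fewer (median 7). Its GC content was 60.3%, against a median of 52.7%. In the order of coding genes of that build, C2cd4b, C2cd4a and Vps13c precede Rora, and Ice2, Anxa2, the annexin A2 gene, and Foxb1, a forkhead factor gene, follow it. Their positions on mm9 were not used here.

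Repeat spots were alike on the arrays, with a median SD of 0.13 to 0.16 log2 among probes printed 5 times, and both channels were well above background at 89.1 to 94.9% of autosomal spots. The KO array stood apart on the sex chromosomes. Y chromosome probes well above background in both channels numbered 106 of 122 on the KO, 41 on the induced, 53 on the non-induced and 50 on the control array. Total X signal, relative to autosomes, was -0.88 log2 on the KO, -0.46 on the induced, -0.45 on the non-induced and -0.37 on the control array. The labels give the same line for all arrays, and what part, if any, this difference has in the values below was not tested. With 1 array per group, no KO value can be given without that array.

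Across the 32 bins of 100 kb, 16 lay below 0 on the KO array, 10 on the induced, 10 on the non-induced and 4 on the control array. The share of all 100 kb windows below 0 was not computed, so these counts are a description. The median of 3240 genomic windows of 750 kb was itself below 0, at -0.31 on the KO, -0.49 on the induced, -0.27 on the non-induced and -0.13 on the control array. The longest run below 0 was 1200 kb on the KO array, from 67700001 to 68900000. It was 1000 kb on the induced array and 1000 kb on the non-induced array, both from 67900001 to 68900000. On the control array it was 300 kb, from 68600001 to 68900000. The run ended at the same bin inside Rora on all 4 arrays and its other edge differed. In that bin, 68.8 to 68.9 Mb, KO was -0.20 ± 0.11 and non-induced -0.14 ± 0.10 (SE), neither distinguishable from 0. Induced was -0.32 ± 0.09 there. The induced and non-induced runs began with -0.22 ± 0.37 and -0.45 ± 0.44 over 2 probes, also not distinguishable from 0. These edges are therefore approximate. On the control array the 3 bins of the run, -0.10 ± 0.14, -0.14 ± 0.10 and -0.05 ± 0.10 (SE), were not distinguishable from 0. The mean over all 234 probes was 0.06 ± 0.05 on the KO, 0.36 ± 0.06 on the induced, 0.37 ± 0.05 on the non-induced and 0.44 ± 0.04 on the control array (SE).

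**Figure D1:**
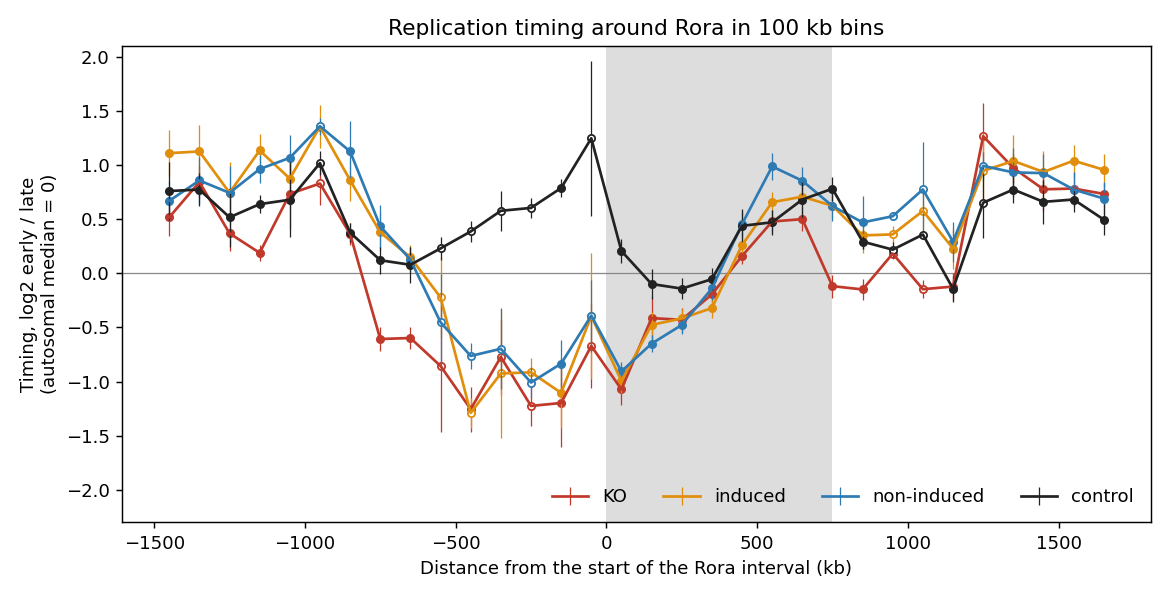
Timing (log2 early over late signal, y axis) in 100 kb bins against distance in kb from the start of the Rora interval (grey band) on the KO, induced, non-induced and control arrays; points are means over probes, bars are SE over probes, and open points rest on fewer than 5 probes. The control line stays above 0 up to the gene start while the other lines run below 0 there, and the lines come closer to each other within the gene.

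The arrays differed most before the gene and over its start. For description, the bins were grouped after their values were seen, and no test was made on these groups. The block from 67.9 to 68.6 Mb covers the last 600 kb before the gene interval and the first 100 kb of it. It averaged -1.05 ± 0.11 on the KO, -0.93 ± 0.11 on the induced, -0.78 ± 0.08 on the non-induced and 0.52 ± 0.09 on the control array (SE over 31 probes). The control array was early there and the other arrays late. KO was below control at 31 of 31 probes, by a mean of -1.57 ± 0.13. Non-induced was below control at 31 of 31 probes too, by -1.30 ± 0.10. Both differences subtract the same control array, which the region was selected on for being early, so their likeness is a description only. Induced and non-induced arrays, which lie on the same slide and played no part in choosing the region, differed by -0.15 ± 0.07 in the block, with 18 of 31 probes lower on the induced array. Scaling the arrays to a common spread turned this last difference to 0.063, and with quantile normalization to 0.14.

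Single probes showed the same split. In the block, probes ranged from -2.24 to 0.14 on the KO array (median -1.26), from -1.79 to 0.57 on the induced (median -1.15), from -1.44 to 0.02 on the non-induced (median -0.86) and from -0.27 to 2.68 on the control array (median 0.43). Only 1 probe lay above 0 on the KO array, 4 on the induced and 3 on the non-induced, against 28 on the control array. The highest control value, 2.68 at chr9:68486235-68486294, came from a probe whose late signal in control was -4.61 log2 relative to the autosomal median. Without it the block averaged -1.08 on the KO, -0.98 on the induced, -0.81 on the non-induced and 0.45 on the control array. The block is sparsely covered, with a median spacing of 19267 bp against 10316 bp over the region, and 5 of its 7 bins hold fewer than 5 probes.

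**Figure D2:**
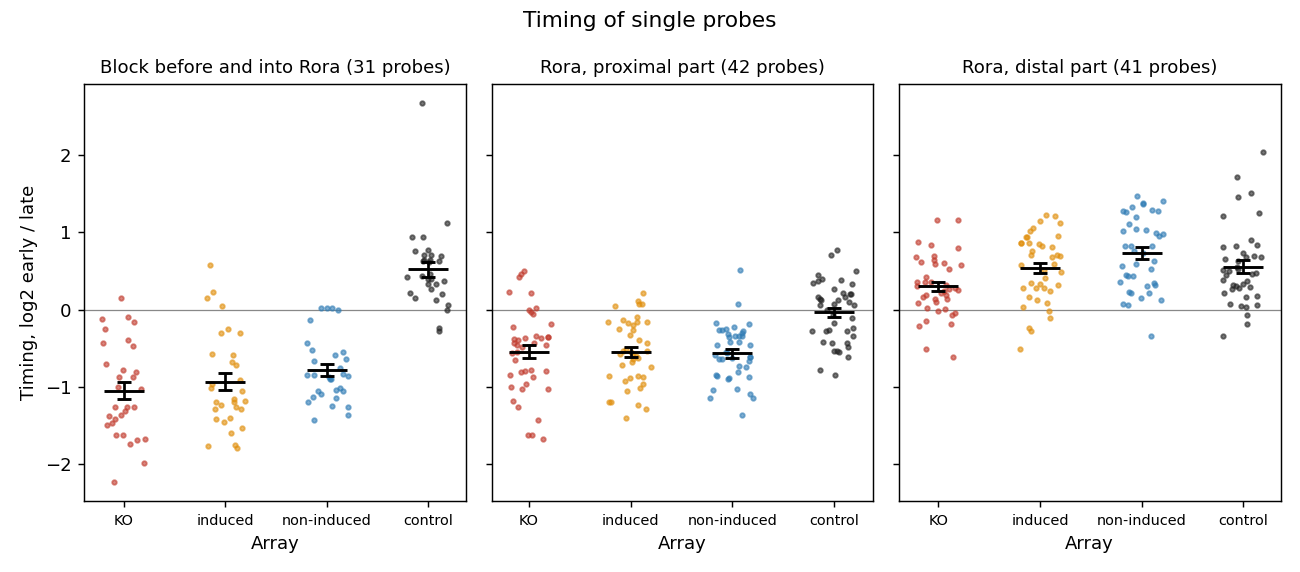
Timing of single probes (log2 early over late signal, y axis) on the KO, induced, non-induced and control arrays in the block before and into Rora (31 probes), the proximal part of the gene interval (42 probes) and the distal part (41 probes); bars are means ± SE over probes. In the block the control points lie above nearly all others. In the distal part the points of all arrays overlap, though the KO mean is the lowest.

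In the bins of the block with at least 5 probes, timing from 68.3 to 68.4 Mb was -1.20 on the KO, -1.10 on the induced, -0.83 on the non-induced and 0.79 on the control array (6 probes). The bin at the gene start, 68.5 to 68.6 Mb, had -1.07 on the KO, -0.99 on the induced, -0.91 on the non-induced and 0.21 on the control array (10 probes). KO minus control was -1.99 ± 0.44 in the first of these bins and -1.28 ± 0.17 in the second. The means of the sparser bins, of 2 to 4 probes, ran the same way, but not all were distinguishable from 0. From 67.9 to 68.0 Mb KO was -0.86 ± 0.61, induced -0.22 ± 0.37 and non-induced -0.45 ± 0.44 (2 probes). From 68.4 to 68.5 Mb KO was -0.67 ± 0.39, induced -0.40 ± 0.59 and non-induced -0.39 ± 0.33 (3 probes). From 68.0 to 68.1 Mb timing was -1.26 on the KO, -1.29 on the induced, -0.76 on the non-induced and 0.39 on the control array (4 probes), and these were the lowest bins of the region on the KO and induced arrays. From 68.2 to 68.3 Mb it was -1.23 on the KO, -0.91 on the induced, -1.01 on the non-induced and 0.60 on the control array (3 probes). Control timing was highest from 68.4 to 68.5 Mb, just before the gene, at 1.25 over 3 probes, one of them the outlying probe above.

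Inside Rora the arrays differed less than before it, apart from the first bin, described above, and the bin at the gene end. In non-induced minus control, 2 further bins differed in opposite directions, by -0.55 ± 0.18 from 68.6 to 68.7 Mb and by 0.52 ± 0.10 from 69.0 to 69.1 Mb. Over the 83 probes of the gene interval, timing was -0.13 ± 0.07 on the KO, -0.02 ± 0.08 on the induced, 0.07 ± 0.08 on the non-induced and 0.26 ± 0.06 on the control array (SE). All 4 means lay close to 0, so the gene interval as a whole was not a late domain on the KO array, although the region was picked as one that is late there. A straight line fitted along the gene rose by 2.06 ± 0.23 log2 per Mb on the KO, 2.77 ± 0.18 on the induced, 3.06 ± 0.20 on the non-induced and 1.28 ± 0.24 on the control array. The bins did not rise steadily. Control went from 0.21 in the first bin to -0.14 from 68.7 to 68.8 Mb before it rose. KO fell from 0.50 from 69.1 to 69.2 Mb to -0.12 in the bin at the gene end. The proximal part, nearer the transcription start and up to 68.875 Mb, averaged -0.55 ± 0.08 on the KO, -0.56 ± 0.07 on the induced, -0.57 ± 0.06 on the non-induced and -0.04 ± 0.06 on the control array (42 probes). The distal part averaged 0.30 ± 0.06 on the KO, 0.54 ± 0.07 on the induced, 0.73 ± 0.07 on the non-induced and 0.56 ± 0.08 on the control array (41 probes). The proximal part was thus later than the distal part on every array, and least so on the control array. The proximal part shares the probes of the first bin with the block. From 68.6 to 68.9 Mb, beyond that bin, timing was -0.34 on the KO, -0.40 on the induced, -0.41 on the non-induced and -0.10 on the control array (35 probes). From 68.7 to 68.8 Mb, a bin of 13 probes within the gene, timing was -0.43 on the KO, -0.42 on the induced, -0.48 on the non-induced and -0.14 on the control array.

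Averaged over the gene interval, KO minus control was -0.38 ± 0.07, with 57 of 83 probes lower on the KO array. Non-induced minus control was -0.18 ± 0.07, with 46 of 83 probes lower on the non-induced array. Induced minus non-induced was -0.09 ± 0.04, with 49 of 83 probes lower on the induced array. Induced minus KO was 0.11 ± 0.05, with 34 of 83 probes lower on the induced array, and it turned to -0.045 with normexp background correction. The 3240 genomic windows of the same length of 750 kb give a scale for these means. The KO and control arrays were used in picking the region, so ranks of differences that include either array are a description only. The gene mean also joins bins that differed much with bins that differed little, so its rank does not describe single bins. KO minus control lay above 27.3% of windows (median of all windows -0.13), non-induced minus control above 34.6% (median -0.05), induced minus non-induced above 54.4% (median -0.14) and induced minus KO above 58.5% (median 0.01). Against its own flanks, 151 probes, the gene interval was later by -0.29 ± 0.10 on the KO, -0.58 ± 0.10 on the induced, -0.46 ± 0.11 on the non-induced and -0.29 ± 0.07 on the control array. These flanks include the block before the gene and the places where KO was lower, so the value mixes stretches that differed with others that did not. The left flank alone averaged -0.06 on the KO, 0.43 on the induced, 0.42 on the non-induced and 0.56 on the control array, and the right flank 0.48 on the KO, 0.76 on the induced, 0.70 on the non-induced and 0.52 on the control array.

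On either side of these stretches lay a place where the mean of the KO array alone was below 0. From 67.7 to 67.9 Mb it averaged -0.60 ± 0.08, against 0.29 ± 0.12 on the induced, 0.32 ± 0.13 on the non-induced and 0.10 ± 0.10 on the control array (16 probes). KO was below control at 16 of 16 probes there, and induced was below KO at 1 of 16. Around the end of Rora, from 69.2 to 69.7 Mb, KO averaged -0.11 ± 0.06, against 0.47 ± 0.08 on the induced, 0.53 ± 0.09 on the non-induced and 0.42 ± 0.09 on the control array (30 probes). The bin with the gene end, 69.2 to 69.3 Mb, had -0.12 on the KO, 0.62 on the induced, 0.62 on the non-induced and 0.78 on the control array (13 probes). KO minus control was -0.90 ± 0.09 in that bin and induced minus KO 0.74 ± 0.11. KO did not stand apart in every bin of that stretch. From 69.4 to 69.5 Mb timing was 0.18 on the KO, 0.36 on the induced, 0.53 on the non-induced and 0.22 on the control array (2 probes). From 69.6 to 69.7 Mb it was -0.12 on the KO, 0.23 on the induced, 0.29 on the non-induced and -0.14 on the control array (6 probes). These stretches were also grouped after their values were seen.

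The outer parts were early on all arrays. From 67.0 to 67.7 Mb timing was 0.51 ± 0.07 on the KO, 1.01 ± 0.09 on the induced, 0.93 ± 0.08 on the non-induced and 0.66 ± 0.08 on the control array (51 probes). From 69.7 to 70.2 Mb it was 0.85 ± 0.07 on the KO, 0.99 ± 0.09 on the induced, 0.84 ± 0.08 on the non-induced and 0.65 ± 0.07 on the control array (40 probes), and KO minus control was 0.20 ± 0.05. At the lower bound of the region, the bin just inside had 0.52 on the KO, 1.11 on the induced, 0.67 on the non-induced and 0.76 on the control array, and the bin just outside had 0.57 on the KO, 0.78 on the induced, 0.24 on the non-induced and 0.80 on the control array. At the upper bound, the bin just inside had 0.73 on the KO, 0.96 on the induced, 0.69 on the non-induced and 0.50 on the control array. The bin just outside had 0.23 on the KO, 0.72 on the induced, 0.79 on the non-induced and 0.19 on the control array. The means at both bounds were above 0 on every array, so the bounds do not lie at the edge of the late stretch. Just outside, some were not distinguishable from 0: 0.24 ± 0.24 on the non-induced array at the lower bound, and 0.23 ± 0.21 on the KO and 0.19 ± 0.18 on the control array at the upper bound. Non-induced minus control was 0.60 ± 0.18 in that upper bin.

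A bin was called later or earlier when it held at least 5 probes and its difference reached both 3 times its SE and a size threshold. That threshold was 0.25 of the span from percentile 10 to percentile 90 of all windows on the array subtracted, which came to 0.46 for both differences from control, 0.53 for induced minus non-induced and 0.57 for induced minus KO. Of the 32 bins, 23 held enough probes, and the same rule was applied to 16498 windows of the genome. In KO minus control, 5 of 23 bins were called later, where 15.5% of all windows were, and 0 earlier, where 9.08% were. The region was picked on this contrast, so nothing is read from that count. In non-induced minus control, 3 bins were later (68.3 to 68.4, 68.5 to 68.6 and 68.6 to 68.7 Mb), where 8.18% of windows were, and 1 was earlier (69.0 to 69.1 Mb, by 0.52 ± 0.10), where 8.45% were. The control array was used in picking the region, so nothing is read from these counts either. In induced minus non-induced, 0 were later, where 7.22% of windows were, and 0 earlier, where 0.873% were. In induced minus KO, 0 were later, where 11.6% of windows were, and 5 were earlier, where 8.03% were. The KO array was likewise used in picking the region, and these counts are a description. The 5 bins were both bins from 67.7 to 67.9 Mb, the bin at the gene end and 2 bins of the outer early part. The latter were 67.0 to 67.1 Mb (0.59 ± 0.16) and 67.3 to 67.4 Mb (0.95 ± 0.15), so the difference was not confined to the places where KO was below 0. The median bin of the region was -0.18 in KO minus control (-0.09 over all windows), 0.16 in non-induced minus control (-0.03), 0.001 in induced minus non-induced (-0.05) and 0.22 in induced minus KO (0.04). With at least 3 probes, which admits most of the sparse bins before the gene, 10 of 30 bins were later in KO minus control and 6 in non-induced minus control. The share of all windows under that looser rule was not computed, and the shares above do not apply to it. Nothing is read from these counts.

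**Figure D3:**
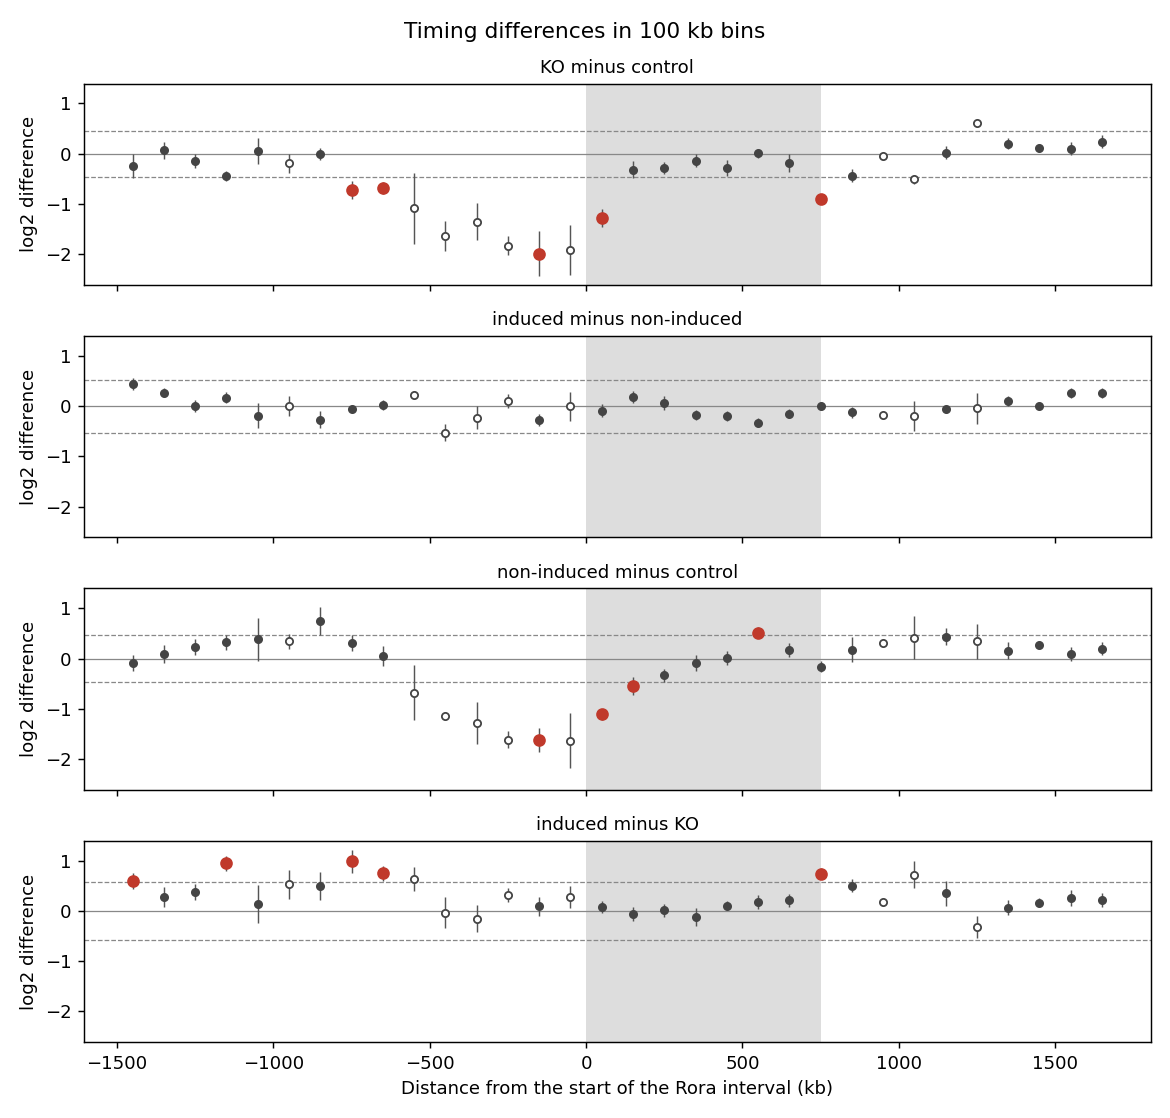
Timing differences (log2, y axis) in 100 kb bins against distance in kb from the start of the Rora interval (grey band) for KO minus control, induced minus non-induced, non-induced minus control and induced minus KO; bars are SE over probes, dashed lines the size threshold, red points called bins and open points bins with fewer than 5 probes. KO and non-induced both lie below control from 600 kb before the gene to its start, and KO also in the 200 kb before that. Induced minus non-induced has no called bin, with its lowest point at -0.53 (4 probes).

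Each channel was then read alone, as log2 signal with the autosomal median of that channel at 0. A channel's level also depends on the probe, so arrays are compared over the same probes. In the block from 67.9 to 68.6 Mb, the early channel stood at -0.87 on the KO, 0.01 on the induced, -0.004 on the non-induced and 0.33 on the control array. The late channel stood at 0.11 on the KO, 0.94 on the induced, 0.84 on the non-induced and -0.21 on the control array. KO minus control was thus -1.20 ± 0.12 in the early and 0.33 ± 0.09 in the late channel. Non-induced minus control was -0.33 ± 0.15 in the early and 1.05 ± 0.14 in the late channel. Both channels were also offset in the outer early parts. Non-induced minus control was 0.54 ± 0.07 in the early and 0.35 ± 0.11 in the late channel from 67.0 to 67.7 Mb, and 0.70 ± 0.08 in the early and 0.59 ± 0.10 in the late channel from 69.7 to 70.2 Mb. KO minus control was 0.44 ± 0.07 in the early and 0.54 ± 0.09 in the late channel from 67.0 to 67.7 Mb, and 0.42 ± 0.08 in the early and 0.18 ± 0.08 in the late channel from 69.7 to 70.2 Mb. Relative to autosomes, the block on the non-induced array differed from control more in the late channel. Relative to these outer parts, it differed more in the early channel, so which channel moved depends on the level it is set against. On the KO array the early channel differed more on both scales. Of the block's 31 probes, 87.1% were well above background in the early channel on the KO array, against all 31 on the control array.

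Over the gene interval, the early channel stood at -0.11 ± 0.15 on the KO, 0.45 ± 0.12 on the induced, 0.50 ± 0.14 on the non-induced and 0.12 ± 0.11 on the control array. The late channel stood at -0.05 ± 0.14 on the KO, 0.47 ± 0.14 on the induced, 0.49 ± 0.14 on the non-induced and -0.15 ± 0.13 on the control array. The induced and non-induced arrays were therefore brighter than the others in both channels. The proximal part of the gene had an early channel of -0.74 ± 0.20 on the KO, 0.09 ± 0.17 on the induced, 0.08 ± 0.18 on the non-induced and -0.01 ± 0.14 on the control array. Its late channel stood at -0.26 ± 0.20 on the KO, 0.65 ± 0.18 on the induced, 0.71 ± 0.18 on the non-induced and 0.004 ± 0.16 on the control array. The low early channel of the KO array thus continued into the gene, but there the late channel was low too. From 68.6 to 68.9 Mb, beyond the bin shared with the block, both channels were lower on the KO than on the control array. KO minus control was -0.55 ± 0.09 in the early and -0.36 ± 0.10 in the late channel of that stretch. In the block the late difference had the opposite sign, at 0.33 ± 0.09. In the distal part the early channel stood at 0.54 ± 0.18 on the KO, 0.81 ± 0.17 on the induced, 0.94 ± 0.19 on the non-induced and 0.27 ± 0.16 on the control array. The late channel there stood at 0.17 ± 0.18 on the KO and -0.31 ± 0.21 on the control array. On the induced array it was 0.28 ± 0.20 and on the non-induced array 0.26 ± 0.22. The KO mean was thus above the control mean in both channels. In the 67.7 to 67.9 Mb stretch, where KO alone was later, KO minus control was 0.11 ± 0.11 in the early and 0.77 ± 0.13 in the late channel. From 69.2 to 69.7 Mb it was 0.11 ± 0.07 in the early and 0.59 ± 0.08 in the late channel. Relative to autosomes the late channel differed more at both places, but the early values lay below, and the late values above, those of the outer parts given above.

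**Figure D4:**
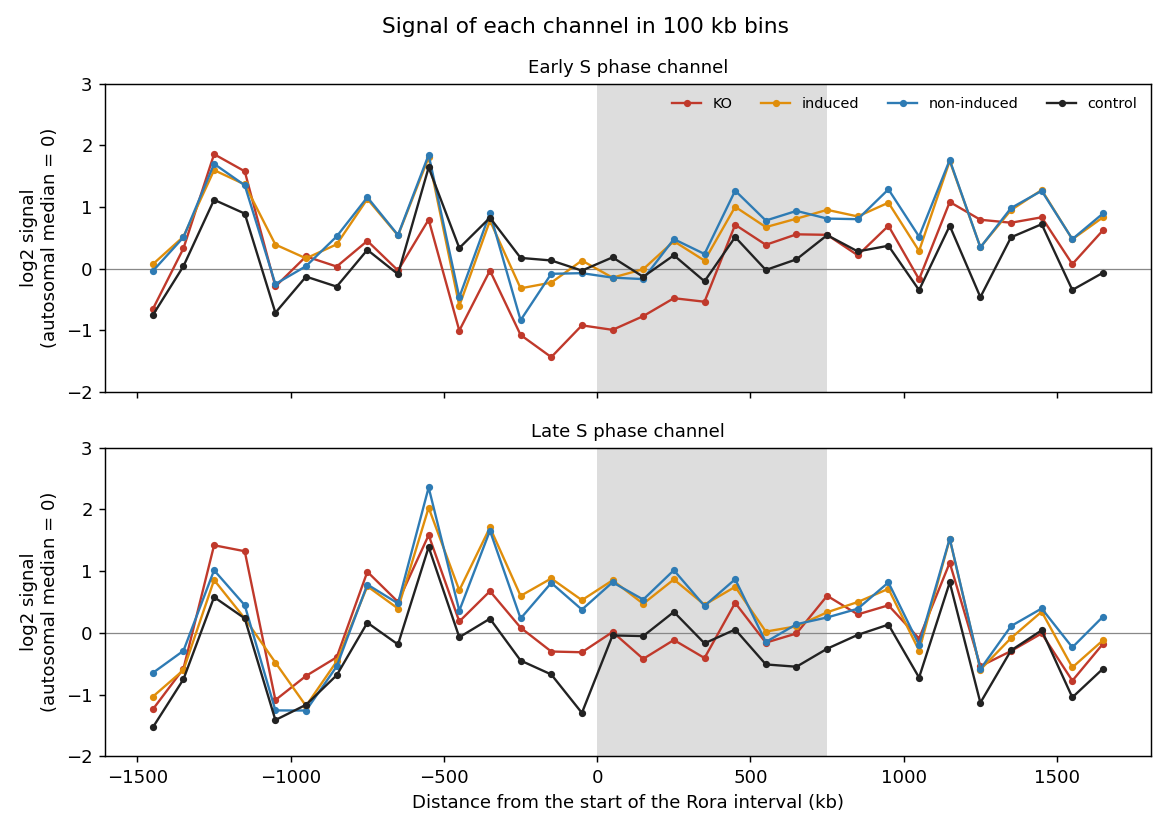
Signal of the early (top) and late (bottom) S phase channel, as log2 with the autosomal median at 0 (y axis), in 100 kb bins against distance in kb from the start of the Rora interval (grey band) on the KO, induced, non-induced and control arrays. Before and over the gene start, the KO line is lowest in the early channel and the induced and non-induced lines are highest in the late channel.

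Total signal, the mean of both channels, also differed between arrays. Over the block it was -0.38 on the KO, 0.47 on the induced, 0.42 on the non-induced and 0.06 on the control array. Non-induced minus control total signal was 0.51 over the gene interval, a value above 87.1% of windows, and 0.21 to 0.66 in the 11 other windows of 750 kb from 64000001 to 73000000. KO minus control total signal was -0.07 over the gene interval and -0.08 in the window before it, against 0.22 to 0.59 in the 10 other windows. Induced minus non-induced total signal was -0.04 over the gene interval. Whether total signal has a part in the timing differences was not tested. KO shared its slide with control, and induced with non-induced, so slide and cells cannot be told apart in non-induced minus control or in induced minus KO.

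Among windows of the same length elsewhere in the genome, 5 were closest to the gene interval in timing on the 4 arrays, by Euclidean distance. The closest was chr1:82750001-83500000 (distance 0.10, median of 3235 windows 1.58), with -0.20 on the KO, -0.08 on the induced, 0.07 on the non-induced and 0.23 on the control array. The next was chr9:32500001-33250000 at a distance of 0.11, followed by chr13:60250001-61000000 at 0.16, chr13:105250001-106000000 at 0.16 and chr16:14500001-15250000 at 0.17. The gene interval's own timing lay above 54.0% of windows on the KO, 58.2% on the induced, 59.2% on the non-induced and 67.0% on the control array.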

How the data were processed

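The scans were quantified by Agilent Feature Extraction, version 11.5.1.1 per the file headers (9.1 in the submitters' processing notes), with probes placed on mm9. The processed signal is an intensity, per the file headers already background-subtracted, detrended and multiplied by a dye factor. The deposited ratio is log10 of late over early. The remaining deposited columns used are quality flags of 0 or 1. Depth has no counterpart on arrays, where the number of arrays limits precision.

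Timing is log2 of early minus log2 of late processed signal. Control spots and 154 to 447 flagged spots an array were dropped, repeat spots averaged, and each array centred on its autosomal median (169660 usable probes on autosomes and X). No loess or quantile step was applied. Bins of 100 kb needed 5 probes. Windows as long as the gene interval needed 20. Bin calling was first run on simulated arrays that differed only by probe noise and a set shift in some windows. The real arrays also differ in spread and total signal, so that run does not give the rate of false calls here. The members and lists were chosen with earlier results of these data known. Named were Rora, all 32 bins by position, gene neighbours by order, and the 5 most similar windows. Alternatives changed background, scaling, centring, probes and thresholds; normexp (offset 50), planned on mean signals, was run on raw median signals. Software was R 4.3.3 with limma 3.58.1, and Python 3.11.15 with pandas 2.3.3, numpy 2.4.6, matplotlib 3.10.9 and scipy 1.17.1.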

Additional observations from a re-analysis of the deposited data

How the results depend on the processing

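Differences over the gene interval and over the block from 67.9 to 68.6 Mb kept their direction and stayed inside the 95% interval over probes in 40 and in 39 recomputations. Over the gene 3 moved further and 1 reversed, and over the block 2 moved further and 3 reversed. Keeping flagged spots or taking the deposited ratio changed little but the centring of these probes. Those recomputations could hardly differ and say little about stability. The block and its alternatives were added after seeing the data. The exceptions follow, and their causes were not tested. With normexp, KO minus control was -0.25 over the gene and -1.06 over the block, non-induced minus control was -1.06 over the block, and induced minus KO turned to -0.045 over the gene and -0.11 over the block. Induced minus non-induced over the block turned to 0.063 with scaling to a common spread and to 0.14 with quantile normalization. Non-induced minus control over the gene was -0.34 with arrays centred on the median window. KO minus control over the gene was -0.23 as a median over probes. Over all alternatives, KO minus control in the block ran from -1.75 to -1.06 and non-induced minus control from -1.48 to -1.06.

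Called bins moved as follows. Shares over all windows were not computed for these settings, so the counts show only how the calls moved. With at least 3 probes, 10 of 30 bins were later and 1 earlier in KO minus control, 6 later in non-induced minus control and 4 earlier in induced minus KO. With odd probes, which leave fewer probes per bin and only 14 bins to test, 2 were later in KO minus control. In that setting 1 was later in non-induced minus control and 2 were earlier in induced minus KO. With even probes, which leave 13 bins, 1 was later and 0 earlier in non-induced minus control, and 3 were earlier in induced minus KO. A lower count there need not be a lower share: the 3 were 23.1% of bins, against 21.7% in the main setting. The bin earlier in non-induced minus control was lost (0 called) with scaling, quantile normalization or centring on windows, and 2 were called at 2 times the SE. With loess, 1 bin was earlier in induced minus non-induced. Channel levels over the gene stayed inside their 95% interval over probes in all 32 recomputations. Those with flagged spots kept changed only the centring and could hardly differ.

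No paired analysis was possible because each group has 1 array. Leaving out a replicate was likewise not possible. The 9 bins with fewer than 5 probes, 5 of them in the block before the gene, limit what the bin counts can show.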
